A study of Rattus norvegicus with 33 samples.

Results

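miR-101a-3p and miR-101b-3p (rno-miR-101a-3p and rno-miR-101b-3p in the tables) are the mature 3' products of the rat miR-101 genes. They are 2 of the 462 miRNAs listed in at least 1 of the 6 count tables of a plasma small RNA sequencing study of drug-induced liver injury, and both were listed in all 6 tables. They were chosen because miR-101b-3p was far higher late after acetaminophen and thioacetamide, so its values in those models are given as a description without a test. miR-122-5p, the most abundant miRNA of the hepatocyte and a common plasma marker of liver injury, serves as the reference for timing.

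Plasma came from male Sprague-Dawley rats, 6 weeks old when obtained, with 5 rats per group, and all agents and vehicles were given by stomach tube. The hepatocellular models received acetaminophen (APAP, 1500 mg/kg, after a fast) or thioacetamide (TAA, 100 mg/kg) in carboxymethylcellulose and were sampled at 3, 6, 12 and 24 h. The cholestasis models received α-naphthylisothiocyanate (ANIT, 150 mg/kg, in corn oil) or 4,4'-methylenedianiline (MDA, 250 mg/kg, in carboxymethylcellulose) and were sampled at 3, 6, 12, 24 and 48 h. The steatosis models received carbon tetrachloride (CCl4, 300 mg/kg, sampled on Day 1, 3 and 5) or dexamethasone (DEX, 15 mg/kg, sampled on Day 1, 2 and 3) in corn oil every day, and these share 1 vehicle library. Each group has 1 count column, called a library here, 24 treated and 5 vehicle, and the sources used here do not say whether it held 1 rat or a pool. The labels name 2 samples each for ANIT vehicle, 12, 24 and 48 h, but these share 1 column per group, and the labels do not say whether it is a sum, a pool or 1 of the 2. No group therefore has replicate values, the ANIT reads, intervals and fits carry this doubt, and an interval given with a value covers counting error only. Reads after PCR without molecular identifiers are not independent molecules, so the true error is larger.

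A miRNA is a short RNA that guides the silencing complex to messenger RNAs, mainly by pairing of its seed, the bases near its 5' end. miR-101 is known for repressing the histone methyltransferase EZH2 and for its low level in human hepatocellular carcinoma. Cells release miRNAs into plasma when they die and in vesicles or protein complexes, so a liver miRNA that is rare in normal plasma can become abundant after liver injury. A plasma read count cannot tell apart how many cells released an RNA and how much each released.

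The mature sequences are shown because the members can be told apart at a single base. The letters are RefSeq's for build GRCr8, written 5' to 3', with the seed (bases 2 to 8) in capitals. miR-144-3p, whose seed matches at bases 2 to 7, is shown with them as the nearest seed relative.
miR-101b-3p: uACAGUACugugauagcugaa
miR-101a-3p: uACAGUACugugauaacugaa
miR-144-3p: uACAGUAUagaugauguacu
The members are 21 bases long and share the seed ACAGUAC, so seed pairing cannot separate their targets. Counted from 1 at the 5' end, miR-101a-3p and miR-101b-3p differ by A16G (the base of miR-101a-3p first). The sources used here do not say how the authors' counting treated a read with 1 mismatch, so a read of one member could have been counted for the other. miR-101b-3p comes from Mir101-2 at chr1:236273982-236274002 on the plus strand, inside the span of the protein-coding gene Rcl1. miR-101a-3p comes from Mir101a at chr5:121081691-121081711 on the minus strand, inside the span of the long noncoding RNA LOC120102934. The hairpins are shown with the mature 3' product in capitals, because they show the near-identical products inside separate precursors.
Mir101-2: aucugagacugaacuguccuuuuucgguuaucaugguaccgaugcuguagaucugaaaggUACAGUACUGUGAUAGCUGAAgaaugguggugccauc
Mir101a: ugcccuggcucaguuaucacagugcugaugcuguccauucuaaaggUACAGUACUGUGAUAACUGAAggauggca

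The miRNA reads per library ranged from 14176 in the MDA vehicle library to 383330 in TAA at 24 h. In the 5 vehicle libraries the members were rare and close to each other. miR-101b-3p made up 0.0669% ± 0.0117 of miRNA reads (SD, n = 5), from 0.0544% to 0.0837%. miR-101a-3p made up 0.0494% ± 0.00839 (SD, n = 5), from 0.0353% to 0.0556%. miR-122-5p varied more between vehicle libraries, at 2.15% ± 1.14 (SD, n = 5), a 5.16-fold range against 1.54-fold for miR-101b-3p. Neither member differed between any of the 10 pairs of vehicle libraries by the rule of size used below, while miR-122-5p did in 5 of the 10 pairs. For miR-101b-3p, 3 pairs came close to the rule. After scaling it was 1.92-, 1.98- and 1.99-fold higher in the CCl4 and DEX vehicle library than in those of APAP, TAA and MDA. These 3 counting intervals left out 1. The largest ratio of miR-101a-3p was 2.24, with an interval that took in 1.

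Ratios to the own vehicle library were made from the counts after TMM scaling, which sets most miRNAs to be alike. A miRNA was called higher or lower where the ratio was at least 2 or at most 0.5 and its exact 95% counting interval left out 1. Beside the calls stands the background: the share of all measured miRNAs (at least 20 reads in 1 library of the model), pooled over the treated libraries, that the same rule called in that direction.

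After APAP, miR-101b-3p went from 28 reads in the vehicle library to 24, 107, 762 and 3485 reads at 3, 6, 12 and 24 h, or from 0.0594% of miRNA reads to 0.0461%, 0.0953%, 0.264% and 1.45%. The 3 h library lay within the counting interval of the vehicle library, and each later library lay above the one before it. The ratio to vehicle was 0.884 at 3 h (0.490 to 1.58), 3.82 at 6 h (2.50 to 6.02), 23.4 at 12 h (16.1 to 35.5) and 70.3 at 24 h (48.6 to 106). It was called higher at 6, 12 and 24 h, beside a background of 24.2% (41.5% in the 24 h library alone). The members were chosen on this rise, so nothing is read from these calls against the background, here or in TAA. The 6 h call was lost with total counts, at 1.60, and it did not hold against each of the 5 vehicle libraries. miR-101a-3p had 26 reads in the vehicle library and 9, 13, 56 and 193 reads at 3, 6, 12 and 24 h. It was lower at 3 h, at 0.357 (0.147 to 0.786), beside a background of 17.7% lower, and this call was lost when every vehicle library was used. It was higher at 24 h, at 4.19 (2.77 to 6.58), a call that was lost at 1.46 with total counts in place of TMM.

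After TAA, miR-101b-3p went from 18 reads in the vehicle library to 74, 200, 536 and 13517 reads at 3, 6, 12 and 24 h. Its share went from 0.0544% to 0.0860%, 0.208%, 0.284% and 3.53%. The 24 h library stood far above all others of the model. The ratios to vehicle were 3.30 (1.95 to 5.87), 11.9 (7.34 to 20.5), 24.3 (15.2 to 41.4) and 228 (144 to 385), all called higher, beside a background of 24.0% (43.9% in the 24 h library alone). The 3 h ratio was 1.58 with total counts, below the rule, and this call too did not hold against each vehicle library. miR-101a-3p had 16 reads in the vehicle library and 20, 19, 41 and 477 reads in the treated ones. At 24 h it was 9.07-fold higher (5.53 to 16.0), and it was higher under total counts too, at 2.57. At 12 h its ratio of 2.09 (1.15 to 4.00) turned to 0.449, a call in the other direction, with total counts. At 24 h there were 3.53 reads of miR-101a-3p for every 100 of miR-101b-3p, so a small share of exchanged reads would matter for miR-101a-3p, which was not tested.

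**Figure D1:**
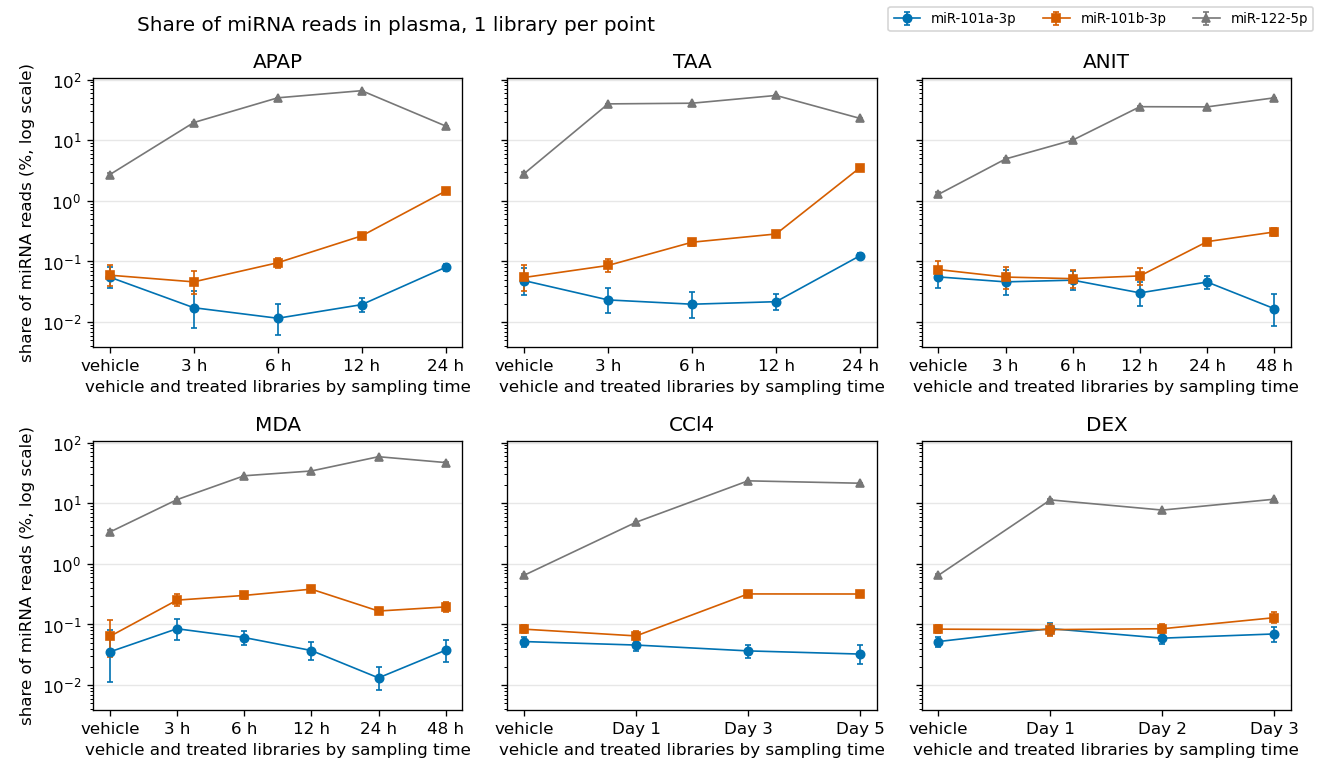
Share of miRNA reads (percent, log axis) of miR-101a-3p, miR-101b-3p and miR-122-5p in the vehicle and treated libraries of each model, with exact 95% binomial intervals (counting error only); CCl4 and DEX show the same vehicle library. miR-101b-3p reaches 1.45% in APAP and 3.53% in TAA at 24 h, after the highest point of miR-122-5p at 12 h.

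After ANIT, miR-101b-3p stayed near its vehicle level until 12 h and was then higher. It had 37 reads in the vehicle library and 24, 36, 40, 329 and 221 reads at 3, 6, 12, 24 and 48 h, or 0.0735% against 0.0553%, 0.0521%, 0.0578%, 0.212% and 0.307%. The first 3 treated libraries overlapped the vehicle's interval and the last 2 did not. The ratio was 1.03 at 12 h (0.644 to 1.66), 3.85 at 24 h (2.74 to 5.57) and 11.9 at 48 h (8.37 to 17.3). The last 2 were called higher, beside a background of 19.2%. At 48 h miR-101b-3p ranked 6 of the 118 miRNAs measured. miR-101a-3p had 28 reads in the vehicle library and 20, 34, 21, 71 and 12 reads in the treated libraries. Its ratios ran from 0.717 to 1.24 and none was called, though with total counts the 48 h library was called lower at 0.299.

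After MDA, miR-101b-3p was higher from the first sampling time on. The vehicle library was shallow, with 9 reads of miR-101b-3p and 5 of miR-101a-3p, so every ratio of this model has a wide interval. miR-101b-3p had 77, 267, 339, 291 and 124 reads at 3, 6, 12, 24 and 48 h, or 0.0635% in vehicle against 0.252%, 0.301%, 0.382%, 0.167% and 0.195%. All 5 treated shares lay above the highest vehicle share of the series. The ratios were 4.13 (2.07 to 9.38), 7.18 (3.73 to 15.9), 9.90 (5.15 to 21.8), 6.36 (3.30 to 14.0) and 6.07 (3.10 to 13.6), all called higher, beside a background of 19.6%. miR-101a-3p had 26, 54, 33, 23 and 24 reads in the treated libraries. Its ratio was called higher at 6 h alone, at 2.61 (1.05 to 8.37), and at 1.73 with total counts it was not called.

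After CCl4, miR-101b-3p was at its vehicle level on Day 1 and higher on Day 3 and 5. It had 189 reads in the vehicle library and 116, 591 and 313 reads on Day 1, 3 and 5, or 0.0837% against 0.0648%, 0.319% and 0.318%. The Day 3 and Day 5 libraries were alike and stood above both the vehicle and Day 1. The ratios were 0.921 (0.725 to 1.17), 9.45 (8.01 to 11.2) and 10.5 (8.71 to 12.6), the last 2 called higher, beside a background of 14.1%. Only 3 miRNAs on Day 3 and 4 on Day 5 had larger ratios. miR-101a-3p had 118 reads in the vehicle library and 82, 68 and 32 reads in the treated ones, with ratios of 1.04, 1.74 and 1.71 after TMM but 0.876, 0.702 and 0.622 with total counts, so its direction depends on the scaling.

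After DEX neither member was called in any library, where 17.6% of miRNAs were higher. miR-101b-3p had 78, 143 and 89 reads on Day 1, 2 and 3, or 0.0823%, 0.0851% and 0.129% of miRNA reads, beside 0.0837% in vehicle. The Day 3 share lay above the vehicle's counting interval and the others within it. The ratios were 1.00 (0.761 to 1.31), 1.32 (1.05 to 1.64) and 1.69 (1.30 to 2.19). miR-101a-3p had 81, 100 and 48 reads, and ratios of 1.67, 1.47 and 1.46. In the same 3 libraries miR-122-5p was 17.9-, 15.4- and 19.7-fold higher, the largest ratio of all 131 miRNAs measured.

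In the 16 libraries of ANIT, MDA, CCl4 and DEX, which did not enter the choice of members, miR-101b-3p was higher than the own vehicle in 9, beside 17.9% of all miRNA and library pairs. These calls include every MDA library, all set against 1 vehicle library with 9 reads of miR-101b-3p. Calls that share a vehicle library are not independent. Over all 24 treated libraries miR-101b-3p was higher in 16 and lower in 0, where 20.1% of all pairs were called higher, and 7 of the 16 are the APAP and TAA calls, so this count is a description. With total counts it was higher in 14 of the 24 libraries (9.84% of all pairs), and against each of the 5 vehicle libraries in turn it was also higher in 14 (11.7% of all pairs). Without the MDA model it was higher in 11 of 19 libraries. These 11 again hold the 7 APAP and TAA calls, and no background was made for the 19 libraries, so this count is a description too. miR-101a-3p was higher in 4 of the 24 libraries and lower in 1, beside 20.5% of all pairs lower. With total counts miR-101a-3p was higher in 1 and lower in 7 (41.4% of all pairs lower), and against every vehicle library higher in 2 and lower in 0 (7.33% lower), so its direction cannot be given without naming the scaling. The median log2 ratio of all measured miRNAs was lower with total counts than with TMM, by up to 2.40 in APAP at 12 h. miR-122-5p was higher in all 24 libraries under each scaling and against every vehicle library.

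**Figure D2:**
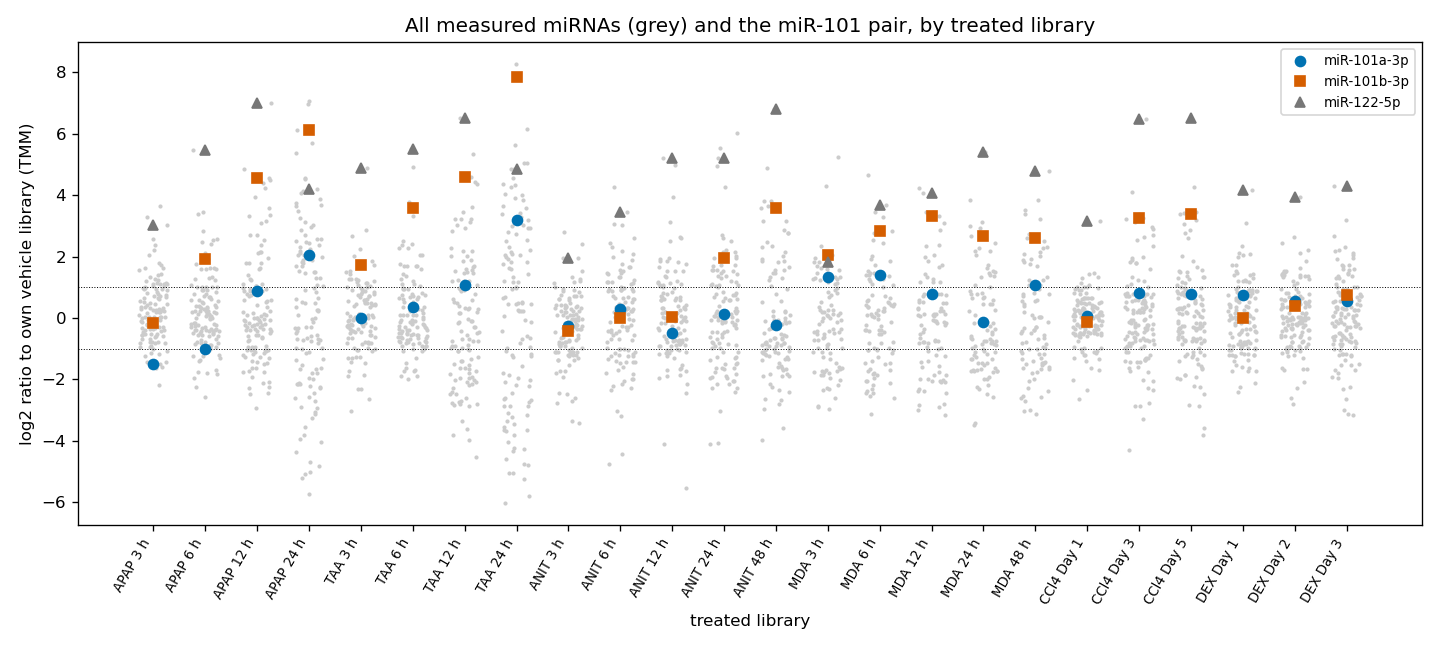
Log2 ratio to the own vehicle library after TMM scaling, for every measured miRNA (grey) and for miR-101a-3p, miR-101b-3p and miR-122-5p in the 24 treated libraries; dotted lines mark a ratio of 2 and of 0.5. miR-101b-3p lies above the upper line in 16 libraries and miR-101a-3p mostly between the lines; with total counts miR-101a-3p is called higher in 1 library and lower in 7.

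Ordered by share over all 29 libraries, miR-101b-3p was highest in TAA at 24 h (3.53%), then APAP at 24 h (1.45%), MDA at 12 h (0.382%), CCl4 on Day 3 (0.319%) and ANIT at 48 h (0.307%, after CCl4 on Day 5 at 0.318%). It was lowest in APAP at 3 h, at 0.0461%. Of the 28 pairs of neighbours in this order, 2 had counting intervals that did not overlap, the top pair and the step below it. The intervals of the others overlapped, which does not by itself show that those neighbours were alike. For miR-101a-3p, 1 pair of neighbours was apart, TAA at 24 h (0.124%) over DEX on Day 1 (0.0854%), and the lowest share was 0.0116% in APAP at 6 h.

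To test the change with a spread, the models served as replicates at the matched time of 24 h or Day 1, with edgeR's quasi-likelihood test and Benjamini-Hochberg adjustment over all miRNAs tested. Such a test asks whether a change recurs across agents, and its spread is that between agents. In the 2 cholestasis models the fitted log2 change of miR-101b-3p was 2.73 (SE 0.82, edgeR adjusted p = 0.0142), higher in 2 of 2 models. There 8.21% of the 134 miRNAs tested were called higher. The call was lost with total counts, at 1.46 (edgeR adjusted p = 0.241), when the median of all miRNAs moved to -1.19. It was also lost when ANIT, MDA, CCl4 or DEX was left out, at edgeR adjusted p = 0.0796, 0.330, 0.164 and 0.0915, while the log2 change stayed between 2.07 and 3.56. miR-101a-3p did not pass the same test, at 0.44 (SE 0.77, edgeR adjusted p = 0.715), and it was at -0.76 with total counts. In the 2 steatosis models neither member passed on Day 1, with miR-101b-3p at -0.08 (SE 0.90, edgeR adjusted p = 0.965) and miR-101a-3p at 0.41 (SE 0.86, edgeR adjusted p = 0.965). There edgeR called 0 of 134 miRNAs, 4 had an unadjusted p under 0.05, and DESeq2 called 1. The difference between cholestasis and steatosis models was 2.81 for miR-101b-3p (SE 1.18) and did not pass after adjustment (edgeR adjusted p = 0.596). That comparison also had 0 calls, with 6 miRNAs at an unadjusted p under 0.05 and 0 calls by DESeq2.

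Over the ANIT, MDA, CCl4 and DEX models jointly, at 24 h or Day 1, miR-101b-3p was at 1.44 on the log2 scale (SE 0.63, edgeR adjusted p = 0.162) and miR-101a-3p at 0.43 (SE 0.43, edgeR adjusted p = 0.528). Of the 136 miRNAs tested, 0.735% were called higher. With the last library of each of these models in place of 24 h or Day 1, miR-101b-3p passed, at 3.03 (SE 0.62, edgeR adjusted p = 0.00371), with a ratio above 1 in 4 of 4 models, called by the rule of size in 3 of them (not in DEX, at 1.69), and beside 16.5% of miRNAs called higher, and miR-101a-3p did not, at 0.63 (edgeR adjusted p = 0.408). As a description of the hepatocellular models at 24 h, the same 6-model fit put miR-101b-3p at 7.13 (SE 0.97), miR-101a-3p at 2.77 (SE 0.76) and miR-122-5p at 4.68 (SE 0.90).

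The number of miR-101b-3p reads per miR-101a-3p read needs no scaling, because both are counted in the same library. In the 5 vehicle libraries it was 1.39 ± 0.311 (SD, n = 5), from 1.08 to 1.80. After APAP it was 2.67, 8.23, 13.6 and 18.1 at 3, 6, 12 and 24 h, and after TAA 3.70, 10.5, 13.1 and 28.3. After ANIT it was 1.20, 1.06, 1.90, 4.63 and 18.4 at 3, 6, 12, 24 and 48 h, and after MDA 2.96, 4.94, 10.3, 12.7 and 5.17. On Day 1, 3 and 5 of CCl4 it was 1.41, 8.69 and 9.78, and on Day 1, 2 and 3 of DEX 0.963, 1.43 and 1.85. Thus 19 of the 24 treated libraries lay above the highest vehicle library, and 11 of the 16 libraries of ANIT, MDA, CCl4 and DEX did. Against the own vehicle, the counting interval of the change lay above 1 in 13 libraries and below 1 in 1. Of the 13, 7 are APAP and TAA libraries, on which the members were chosen, so that part is a description. In the 16 libraries of ANIT, MDA, CCl4 and DEX it lay above 1 in 6 and below 1 in 1. The library below 1 was DEX on Day 1, at 0.602 of the vehicle value (0.401 to 0.902). The largest change was 25.2-fold (11.9 to 52.6), in the last TAA library, and the last ANIT library was at 13.7-fold (6.15 to 32.5). In the MDA model the intervals of 3 of 5 libraries took in 1, with 9 and 5 reads behind the vehicle value.

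**Figure D3:**
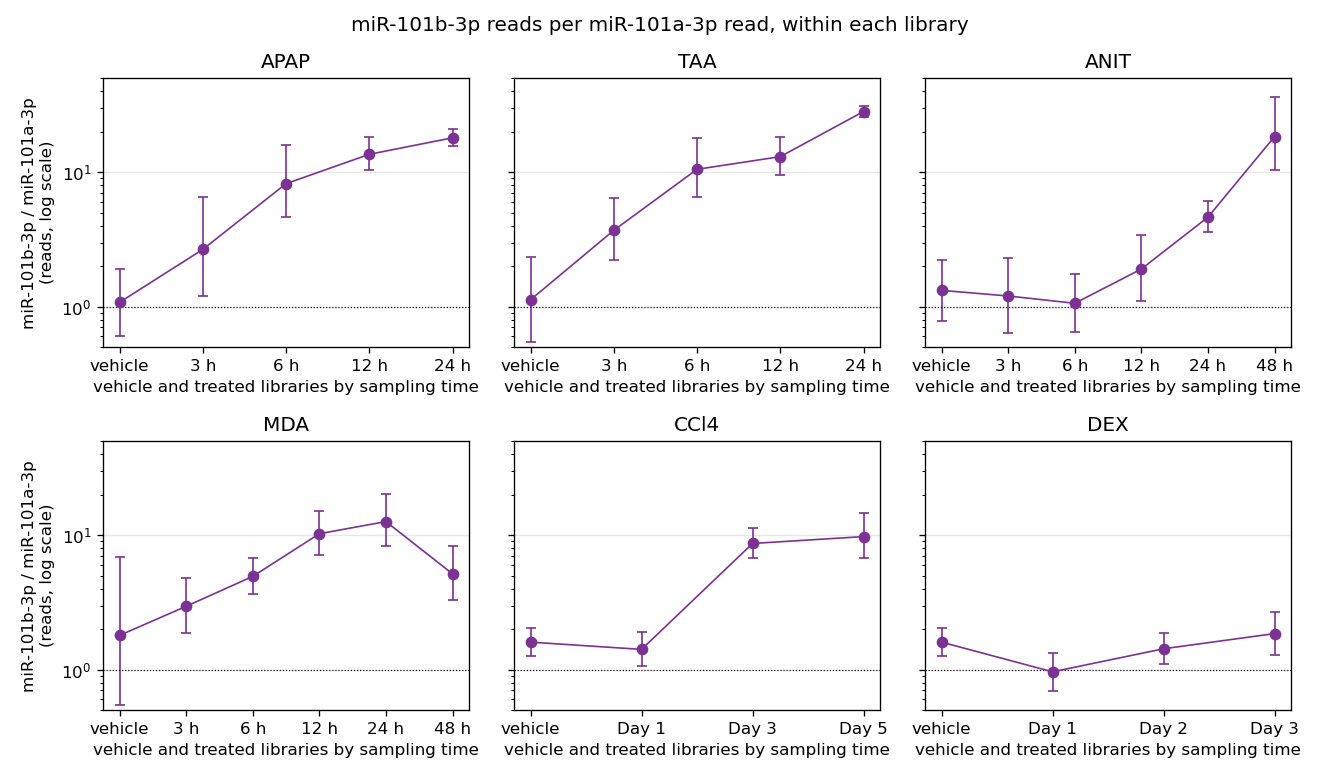
Reads of miR-101b-3p per read of miR-101a-3p within each library (log axis) for the vehicle and treated libraries of each model, with exact 95% counting intervals; the dotted line marks equal counts. Vehicle libraries sit between 1.08 and 1.80, the 4 APAP libraries climb to 18.1, the 4 TAA libraries to 28.3 and ANIT at 48 h reaches 18.4, while DEX stays between 0.963 and 1.85.

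The timing of miR-101b-3p against miR-122-5p differed between the models. After APAP, miR-122-5p went from 1274 reads in vehicle to 10164, 56052, 188707 and 41096, with its highest share, 65.5%, at 12 h and 17.1% at 24 h. miR-101b-3p was at 18.2% of its own highest share at 12 h and reached that highest share at 24 h. After TAA, miR-122-5p was already at 39.7% of miRNA reads at 3 h, highest at 54.7% at 12 h and at 22.9% at 24 h. At 12 h miR-101b-3p was at 8.06% of its highest share, which again came at 24 h. In ANIT both were highest at 48 h, in CCl4 both on Day 3 and in DEX both on Day 3. In ANIT at 12 h, however, miR-122-5p was already at 71.3% of its highest share and miR-101b-3p at 18.9%. In DEX miR-122-5p was at 97.4% of its highest share on Day 1, and its Day 1 and Day 3 counting intervals overlapped. In MDA the order was the reverse of that in APAP and TAA, with miR-101b-3p highest at 12 h and miR-122-5p at 24 h. After TMM scaling the highest CCl4 library of both miRNAs was Day 5, and the other times stayed as given.

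Within a library, miR-101b-3p reads per 1000 miR-122-5p reads give the same timing without scaling. In APAP the value was 22.0 in vehicle and 2.36, 1.91, 4.04 and 84.8 in the treated libraries, and in TAA 19.4 in vehicle and 2.17, 5.11, 5.20 and 154. Both models dipped below their own vehicle through 12 h and stood above it at 24 h, though APAP at 24 h was below the CCl4 and DEX vehicle library. In ANIT the value was 57.5 in vehicle and 11.3, 5.19, 1.62, 6.00 and 6.14, and in MDA 19.0 and 22.0, 10.6, 11.3, 2.86 and 4.17. In the steatosis models it was 129 in vehicle, then 13.4, 13.7 and 14.9 for CCl4 and 7.26, 11.1 and 11.1 for DEX. No library of ANIT, CCl4 or DEX came back to its vehicle value, while in MDA the 3, 6 and 12 h libraries lay within the vehicle's wide interval (8.65 to 36.4) and the 24 and 48 h libraries below it. The log2 difference of the last from the first treated library was 5.14 in APAP and 6.14 in TAA, given as a description. It was -0.90 in ANIT, -2.40 in MDA, 0.16 in CCl4 and 0.62 in DEX, with a mean of -0.63 (SD 1.34, n = 4 models). A two-sided exact sign-flip permutation test over these 4 models gave p = 0.5, where the smallest p that 4 models allow is 0.13.

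**Figure D4:**
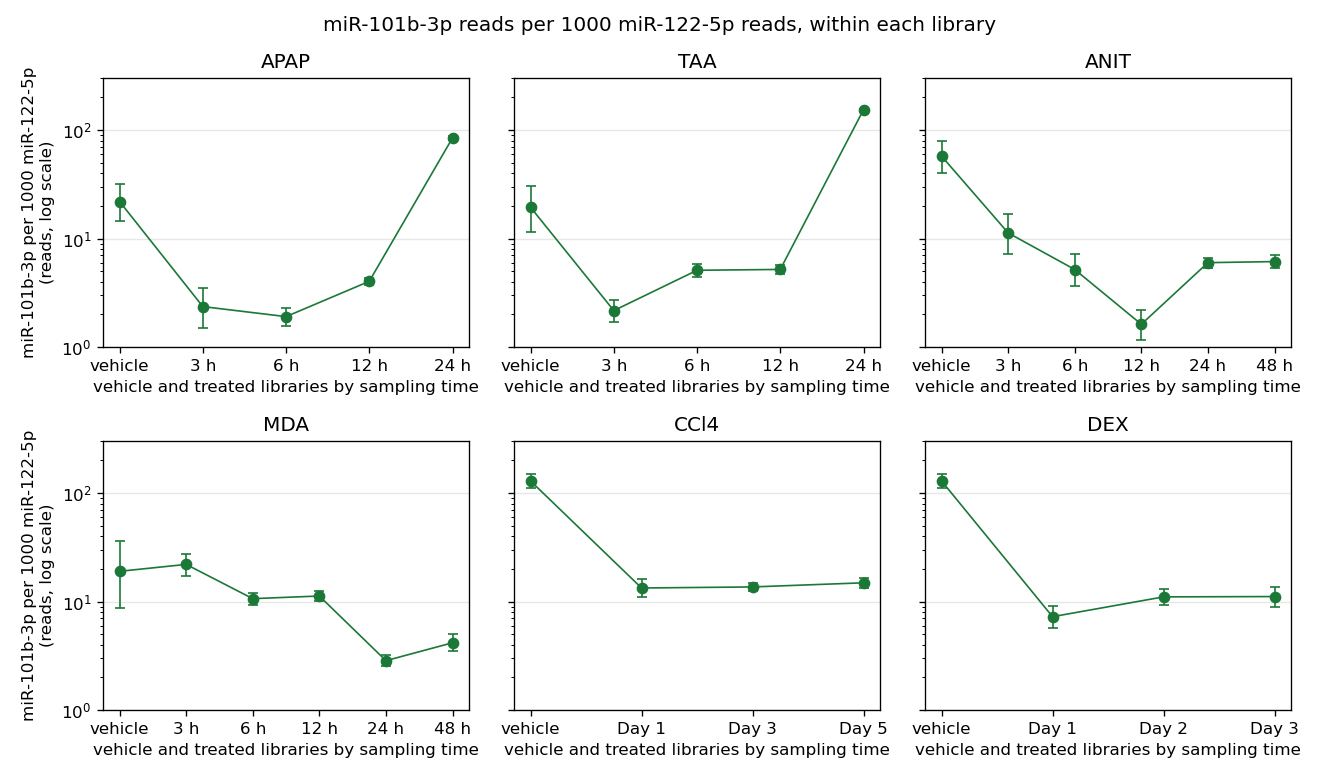
Reads of miR-101b-3p per 1000 reads of miR-122-5p within each library (log axis) for the vehicle and treated libraries of each model, with exact 95% counting intervals. The value passes its vehicle level at 24 h in APAP (84.8) and TAA (154), while in ANIT, CCl4 and DEX every treated library lies below the vehicle library.

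The miRNAs whose log2 ratios followed miR-101b-3p most closely over the 24 treated libraries were picked by Pearson's r among 108 miRNAs with enough reads. They were miR-194-5p (r = 0.95) and miR-192-5p (r = 0.93), which are processed from shared precursors and enriched in liver and gut, miR-378a-3p (r = 0.89), which lies in the gene of the metabolic coactivator Ppargc1b, miR-30b-5p (r = 0.86) and miR-3559-3p (r = 0.85). The points share vehicle libraries and scaling within a model, so these are descriptions with no p. miR-101a-3p ranked 16 with r = 0.72 and miR-122-5p ranked 31 with r = 0.51, or -0.003 with total counts. Without the APAP and TAA 24 h libraries miR-122-5p ranked 10 with r = 0.72 and miR-101a-3p ranked 23 with r = 0.46. By Spearman's rho miR-122-5p ranked 17 and miR-101a-3p 18, both at 0.64. The place of miR-122-5p therefore depends on the libraries and the measure used. miR-194-5p and miR-192-5p ranked 1 and 2 also by Spearman's rho, with total counts and without the APAP and TAA 24 h libraries. miR-30b-5p ranked 9 by Spearman's rho and also without those 2 libraries, where its r was 0.72. miR-194-5p was 23.7-fold higher in APAP and 49.5-fold in TAA at 24 h, 12.4-fold in ANIT at 48 h, 10.8-fold in CCl4 on Day 5 and 1.59-fold in DEX on Day 3. miR-101b-3p had the same order in these 5 libraries, at 70.3, 228, 11.9, 10.5 and 1.69. miR-30b-5p was 32.8-fold higher in TAA at 24 h but at 0.504 in MDA at 12 h, where miR-101b-3p was at 9.90.

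In a list of the miR-29 and miR-101 families, 3 of the 5 miRNAs had enough reads, both members and miR-29a-3p, a repressor of collagen messages. miR-29b-3p never passed 17 reads and miR-29c-3p never passed 13. All 3 were called higher in APAP at 24 h, beside 41.5% of all miRNAs (median log2 ratio 3.68, beside 0.17), and in TAA at 24 h, beside 43.9% (3.14, beside 0.46). For the members this is the rise they were chosen on, and the miR-101a-3p call in APAP was lost with total counts. miR-29a-3p had 54 reads in the APAP vehicle library and 1236 at 24 h, a ratio of 12.9, and 52 and 519 reads in TAA, a ratio of 3.04. Its ratio was 2.73 in ANIT at 48 h, 2.47 in CCl4 on Day 5, 1.19 in DEX on Day 3 and 1.06 in MDA at 48 h, so miR-29a-3p lay below miR-101b-3p in each of these libraries. As a share of reads, miR-29a-3p rose in APAP at 24 h, from 0.115% to 0.514%. Its share fell from 0.157% to 0.135% in TAA at 24 h, so its call there depends on the TMM scaling. The share was also below vehicle in ANIT at 48 h (0.179% against 0.187%) and CCl4 on Day 5 (0.106% against 0.118%).

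The 5' arms of the hairpins were close to absent. miR-101a-5p was listed in 1 table with 1 read in 1 library, and miR-101b-5p in 0 tables. miR-144-3p, a red cell miRNA, had at most 4 reads in any of the 23 libraries whose tables list it.

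Marker lists of possible sources of plasma miRNA differed between libraries as well. The hepatocyte list (miR-122, miR-192, miR-194, miR-148a and others, of which 6 or 7 of 8 were listed) summed to 33.5% to 39.9% of reads in vehicle libraries and 36.9% to 89.0% in treated ones. Most of the vehicle sum was miR-148a-3p, at 29.7% to 37.5% of reads. Its ratios to vehicle ran only from 0.734 (MDA at 3 h) to 3.65 (CCl4 on Day 5). In APAP and TAA at 24 h, 6 of the 6 measured hepatocyte miRNAs were higher after TMM, beside 41.5% and 43.9% of all miRNAs, and miR-122-5p, miR-148a-3p, miR-192-5p and miR-194-5p had reads in every library. The miR-148a-3p calls there, at 2.49 and 2.52, depend on the TMM scaling. Its share of reads fell from 29.7% to 25.7% in APAP and from 35.8% to 25.6% in TAA. The red cell list summed to 3.18% to 6.60% in vehicle libraries and 0.0843% to 6.79% in treated ones, with the lowest value in TAA at 24 h, where miR-101b-3p was highest. The leukocyte list went from 1.02% to 1.52% in vehicle libraries down to 0.0493% in TAA at 24 h. The platelet and endothelium list (0.398% to 0.834% in vehicle) and the muscle list (0.132% to 0.653% in vehicle) were at 0.0326% and 0.00652% in TAA at 24 h. After TMM scaling, the median log2 ratio in that library was -2.20 for the red cell list and -2.87 for the leukocyte list. It was -1.27 for platelet and endothelium and -5.18 for muscle, from 2 measured miRNAs each, beside 0.46 for all miRNAs. The muscle list was highest in APAP at 3 h, at 1.39%, above every vehicle library, and miR-101b-3p was not called there. In DEX on Day 3, where neither member was called, the red cell list was at 6.79% and the platelet and endothelium list at 1.05%. No defining miRNA of the red cell list other than miR-144-3p and miR-363-3p was at 0 in any library. The part of these sources in the members' counts was not tested.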

How the data were processed

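Plasma RNA from 200 µL was made into small RNA libraries with 15 PCR cycles, per the labels' protocols. The authors deposited whole-number read counts per miRNA in 6 tables, and beside them a normalized signal, which is the count divided by a size factor; DESeq 1.28.0 is named in the submitters' processing notes. The sources used here name no aligner, genome build or miRNA release. The 33 labelled samples correspond to 29 libraries, since 2 labelled samples share 1 column in 4 of the ANIT groups. The shared CCl4 and DEX vehicle library differed between its tables for 36 miRNAs by at most 4 reads, and by 0 for the members and miR-122-5p.

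TMM factors came from miRNAs with at least 20 reads in 1 library of a model (edgeR 4.0.16, R 4.3.3). Ratio intervals are exact conditional binomial (Clopper-Pearson) intervals at 95%, from Python 3.11.15 and scipy 1.17.1. The models' fits used edgeR with the vehicle set as a block, on miRNAs reaching 10 reads in 3 or more of 7 libraries (4 models) or in 4 or more of 11 (6 models). DESeq2 1.42.0 was an alternative. Log2 ratios of single libraries used a pseudocount of 0.5 reads for the timing test and the likeness. Both steps were tested on simulated data. For the fits the simulation had a fixed spread, large set changes and no differences between vehicle sets. It therefore checks the code and not how the fits perform at the spread between agents.

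The members and lists were chosen with earlier results of these data known. The miRNAs named are the members, miR-122-5p, the 5' arms, the 5 most like miR-101b-3p (listed in all 6 tables, reaching 20 reads in 6 or more libraries), the miR-29 and miR-101 families, seed relatives and marker lists. Sequences are RefSeq's (GRCr8).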

Additional observations from a re-analysis of the deposited data

Results flagged for a closer look

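The log2 difference of the last from the first treated library in miR-101b-3p per miR-122-5p read was above 0 in both hepatocellular models (5.14 in APAP, 6.14 in TAA) and in both steatosis models (0.16 in CCl4, 0.62 in DEX), and below 0 in both cholestasis models (-0.90 in ANIT, -2.40 in MDA). It is listed here because each model of one injury type moved the opposite way to each model of another. With the second treated library as the early point ANIT turned to 0.23 and DEX was at 0.013, so the opposition rests on the choice of early point. The CCl4 value lies within counting error, since the intervals of its Day 1 and Day 5 libraries overlap (up to 16.0 on Day 1 and from 13.3 on Day 5, in miR-101b-3p reads per 1000 miR-122-5p reads). The difference between the types was not tested, the APAP and TAA values were known when the members were chosen, and the last library was at 24 h, 48 h or a later day depending on the model.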

How the results depend on the processing

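miR-101b-3p kept its call in the cholestasis models with DESeq2, with no filter and with the last libraries, but not with total counts (1.46, edgeR adjusted p = 0.241); leaving out 1 model at a time gave 2.07 to 3.56. In the 4 models it passed only with the last libraries (3.03). Its steatosis value changed sign with DESeq2 (0.0039) and with the last libraries (2.55), and ranged from -0.12 to 0.018 when a model was left out. miR-101a-3p turned to -0.30 in the 4 models, -0.76 in cholestasis and -1.08 in the difference of cholestasis and steatosis with total counts, and that difference ranged from -0.28 to 0.30 when a model was left out. The number of miRNAs called in the 4 models was 3, and 15 with DESeq2, 23 with the last libraries, 11 with no filter, 5 with total counts and 0 to 7 with a model left out. In cholestasis it was 15, and 30 with total counts and 2 to 18 with a model left out. In steatosis it was 0, and 1 with DESeq2, 1 with total counts and 0 to 1 with a model left out, and in the difference 0 to 2. Libraries with miR-101a-3p higher numbered 4, and 6 with 1 TMM for all libraries, 1 by total counts, 7 by the authors' signal, 6 with TMM from every miRNA of a table and 2 against every vehicle library. Those with it lower numbered 1, and 2 with 1 TMM for all libraries, 7 by total counts and 0 against every vehicle library. The miR-101a-3p ratio in TAA at 12 h turned to 0.449 with total counts. TMM over every miRNA, and leaving MDA out of the counts of libraries, were chosen after seeing the data; leaving out a model in the fits was planned. The cause of these changes was not tested. The late minus early difference was -0.64 with a pseudocount of 1 and -0.25 with the second treated library as the early point. By the labels' replicate numbers: No paired analysis was possible because the ANIT samples that carry them share 1 column per group. Each fit sets a treated library against its own vehicle as a block. Depth limits the MDA model most, with 9 and 5 reads of the members in its vehicle library.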
